A study of Rattus norvegicus with 9 samples.

Results

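The transcript clusters described here are probe groups of a rat whole-transcriptome array that the platform annotation ties to no gene and that had a mean signal of 6.5 or more on the log2 scale here. They were chosen by 3 conditions: an identifier that begins with TC or TSUnmapped, no entry in the platform's probe-gene annotation, and that mean taken over all 9 arrays. Of 68842 transcript clusters 44891 had no entry, and 7387 of these met the threshold. The threshold uses the signal itself, so the levels below are a description with no test. Each group holds 3 arrays, so the mean over all 9 does not enter the differences between groups, and those differences were tested.

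Clariom D rat arrays were hybridised with total RNA of brain tissue from male rats, 3 arrays in each of 3 groups. Cx_Sham is bilateral parietotemporal cortex and Hp_Sham bilateral hippocampus, both of rats handled like the treated ones with no current applied. Hp_TFS is bilateral hippocampus of rats that received transcranial focal stimulation (TFS), in which current is applied across the scalp, at 300 Hz and 50 mA for 5 min, with tissue taken 4 h later. The labels used here give no strain or age and do not say whether each array is a separate animal, so the p-values cover only the spread among these arrays, which may be technical. With 3 arrays against 3 the smallest p of an exact test is 0.1, and the number of arrays limits the precision.

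A transcript cluster is a set of short probes that the array's designers placed on evidence of transcription, from curated genes down to single expressed sequence tags and computed predictions. Much of a mammalian genome is transcribed outside protein-coding genes, into long noncoding RNAs, unprocessed introns, extended ends of genes and copies of repeated elements, and brain is known for a wide range of such transcripts. A cluster with no entry may belong to any of these, or may carry probes that bind unrelated RNA. The identifier gives a chromosome in its first characters, followed by a running number. For annotated clusters that chromosome matched the gene's RefSeq chromosome in 98.7% of 21791 cases, so it is used below as the place of a cluster. No position, sequence or gene name was available for these clusters, and none is given; the common ending of the identifiers is left out.

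All arrays were alike in overall signal. Their medians lay between 4.95 and 5.04, and positive control probe sets lay 3.67 to 4.0 log2 units above negative ones. Signals under 7.57, the 95th percentile of the means of 1153 negative controls, are called within the background range here. Known genes followed the labelled tissue. Of 11 measured hippocampal markers 6 were higher in sham hippocampus by limma at an adjusted p under 0.05, among them Prox1, a transcription factor of dentate granule cells (1.89, adjusted p = 4.47e-05). Of 11 cortical markers 5 were lower, such as Lamp5 of upper-layer neurons (-1.49, adjusted p = 8.81e-04), and 1, the exchange factor gene Rasgrf2, was higher (0.51, adjusted p = 0.0091). The hippocampal markers Tdo2, Spink8, Lct and Dsp lay within the background range in both tissues. So did Bok, which was among the 6 called higher (7.01 in cortex and 7.34 in sham hippocampus). Foxp2, among the 5 cortical markers called lower, lay there as well (5.45 and 4.79).

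Over the whole array clusters without an entry were dimmer than annotated ones, with a median of 4.58 against 6.03. Of them 16.5% reached 6.5, against 40.2% of annotated clusters, and the level of those that did is what the rule used. Their means ran from 6.5 to 13.46, with a median of 8.01 and quartiles of 7.05 and 10.42. Above the background range lay 4437 of them (60.1%), against 4739 (49.2%) of the 9633 annotated clusters at 6.5 or more. The means of the others lay within it. A separate group of bright clusters stood out in the distribution: 2019 (27.3%) had a mean of 10 to under 12, where only 311 (3.23%) of the annotated clusters lay. Another 3679 lay at 6.5 to under 8, 1577 at 8 to under 10 and 112 at 12 to under 14.

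**Figure D1:**
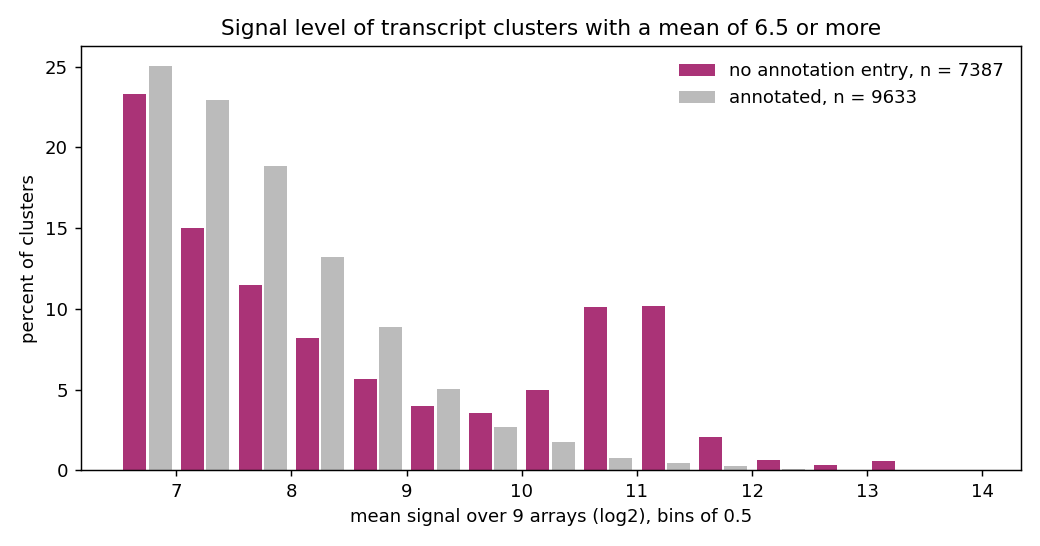
Percent of clusters (vertical axis) by mean signal over 9 arrays on the log2 scale in bins of 0.5 (horizontal axis), for 7387 clusters without an annotation entry and 9633 annotated clusters at 6.5 or more. Annotated clusters thin out steadily, while those without an entry have a second rise between 10 and 12, where 27.3% of them lie.

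Most of these clusters were above the threshold in every tissue. In 7033 all 3 group means were at 6.5 or more, and in 354 at least 1 group mean fell short: 121 in sham cortex, 100 in sham hippocampus and 209 in TFS hippocampus. The 3 clusters just inside the threshold were TC0600002837, TC0300002619 and TC0300001463, all with a mean of 6.5 after rounding. Just outside it, with means that round to the same value, lay TC1500000831, TC1400000911 and TC0700000373. TC1400000911 measured 5.94, 6.13 and 5.77 in cortex, 6.80, 6.63 and 6.64 in sham hippocampus and 6.92, 6.88 and 6.77 in TFS hippocampus, so a cluster with a regional difference can fall on the outer side.

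The brightest clusters were nearly constant. TC1000002004, the highest, measured 13.55, 13.49 and 13.52 in cortex, 13.54, 13.35 and 13.39 in sham hippocampus and 13.46, 13.44 and 13.42 in TFS hippocampus. Its groups overlapped in both comparisons. TC0X00000737, TC0100007922, TC0100006796, TC0500001196, TC1900000728, TC0900000495 and TC0400002668 followed at means of 13.40 to 13.46, and in each of these 8 clusters sham hippocampal array 2 was the lowest of the 9. TC0600002596 and TC0600002597, neighbours by number, ran the other way. TC0600002596 measured 13.24, 13.35 and 13.33 in cortex, 13.36, 13.43 and 13.41 in sham hippocampus and 13.39, 13.40 and 13.43 in TFS hippocampus, with the cortical arrays lowest. None of these 10 was called in either comparison by limma. For scale, the brightest annotated noncoding RNA followed here was Bc1, a small RNA of neuronal dendrites, at a mean of 12.75, and Meg3, a long noncoding RNA of neurons, lay at 9.17.

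Clusters without an entry came from every chromosome that had any. Those with a place in the genome ranged from 12 on scaffolds assigned to a chromosome, 20 on unplaced scaffolds and 34 on the mitochondrial genome to 878 on chromosome 1. The X chromosome held 394, which is 23.4% of its 1686 clusters without an entry, against 16.5% over the whole array, and 45.2% of these 394 lay at 10 to under 12. Chromosome 12 stood at the other end, with 24 of its 187 (12.8%) at that level. Of 21 TSUnmapped clusters without an entry, which the array places nowhere in the genome, 8 reached 6.5.

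The unmapped clusters reached high levels and differed little. TSUnmapped00000176 measured 10.99, 11.04 and 11.05 in cortex, 11.02, 10.83 and 10.94 in sham hippocampus and 10.87, 10.91 and 10.86 in TFS hippocampus. TSUnmapped00000151 measured 10.67, 10.81 and 10.79, then 10.60, 10.84 and 10.88, then 10.81, 10.80 and 10.86 in the same order of groups. TSUnmapped00000152 measured 9.81, 9.90 and 9.93, then 10.002, 9.99 and 9.92, then 10.04, 10.06 and 9.98. The sham and TFS hippocampal arrays overlapped for all 3, and 0 of the 8 unmapped clusters were called in either comparison by limma.

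Many of the bright clusters could not be told apart from one another. The same 9 values, to every deposited digit, were held by 2 or more clusters in 152 cases, which together took in 699 clusters (9.46%) and left 6840 distinct profiles. The largest such set had 49 clusters with 15 different chromosomes in their identifiers. Its first, TC0100000688, measured 11.18, 11.23 and 11.01 in cortex, 11.14, 11.32 and 11.14 in sham hippocampus and 11.03, 11.004 and 11.15 in TFS hippocampus. Sets of 48, 44, 30 and 29 clusters followed, led by TC0100004244, TC0100000084, TC0100006321 and TC0100004259. The 15 sets with 10 or more clusters held 354 in all, every set with a mean between 10.39 and 11.84. Of the clusters at 10 to under 12, 26.1% shared a profile, against 0.187% of the annotated clusters at 6.5 or more. Clusters with equal values are 1 measurement, not several, and probes that occur in many places of the genome cannot be told apart here from separate transcripts.

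Most clusters at 10 to under 12 followed 1 profile over the arrays. Their array medians were 10.99, 11.05 and 10.88 in cortex, 10.98, 11.17 and 10.95 in sham hippocampus and 10.84, 10.84 and 10.99 in TFS hippocampus. Sham hippocampal array 2 was the highest, TFS arrays 1 and 2 were the lowest, and the groups overlapped. Of these 2019 clusters 1458 (72.2%) had a Pearson correlation of 0.8 or more with this median profile over the 9 arrays, which all the clusters share. Of the 1493 that shared their exact values with no other cluster, 1023 (68.5%) had such a correlation with their own median profile. Of the 311 annotated clusters at the same level 4 (1.29%) had it with the profile of the unannotated clusters, and 47 (15.1%) with the median profile of the annotated ones. The share was 2.91% among the clusters at 6.5 to under 8, 11.5% at 8 to under 10 and 8.04% at 12 to under 14.

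The first comparison asks how hippocampus and parietotemporal cortex of sham rats differ in these transcripts. Of the 7387 clusters 332 (4.49%) passed the limma test at an adjusted p under 0.05, 219 higher and 113 lower in hippocampus. Over all 68842 clusters 2.71% passed, 1.33% higher and 1.38% lower, and among annotated clusters at 6.5 or more 9.75% did. Both shares are to be read with the level, since dim clusters passed less often: of those without an entry and under 6.5 only 0.821% passed. The 332 included 86 that differed by over 2-fold, 68 higher and 18 lower, while 0.36% of all clusters passed at that size. The called clusters counted 318 distinct profiles.

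The calls lay in the lower and middle levels. They numbered 212 of 3679 clusters at 6.5 to under 8, 107 of 1577 at 8 to under 10, 13 of 2019 (0.644%) at 10 to under 12 and 0 of 112 above. At 10 to under 12 the annotated clusters passed in 34 of 311 cases (10.9%). All 332 had non-overlapping arrays. Without regard to the test, arrays did not overlap for 666 clusters higher (9.02%) and 525 lower (7.11%) in hippocampus, against 5.57% and 7.39% of all clusters. An unadjusted p under 0.05 was found for 656 higher and 544 lower, against 5.39% and 6.99% of all clusters. With at least a 1.5-fold difference as well, there were 264, where 1.43% of all clusters met both. The cortical mean was under 6.5 in 30 of the 219 higher clusters, and the sham hippocampal mean in 25 of the 113 lower ones. These entered only through the tissue in which they were high. Of the 7033 clusters with a mean of 6.5 or more in each group 273 (3.88%) passed, 189 higher and 84 lower. The 332 calls kept their sign in each of 18 refits, and between 143 and 332 of them were called there. Their total fell to 159 without cortical array 1, to 154 without sham hippocampal array 2 and to 165 without sham hippocampal array 3.

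**Figure D2:**
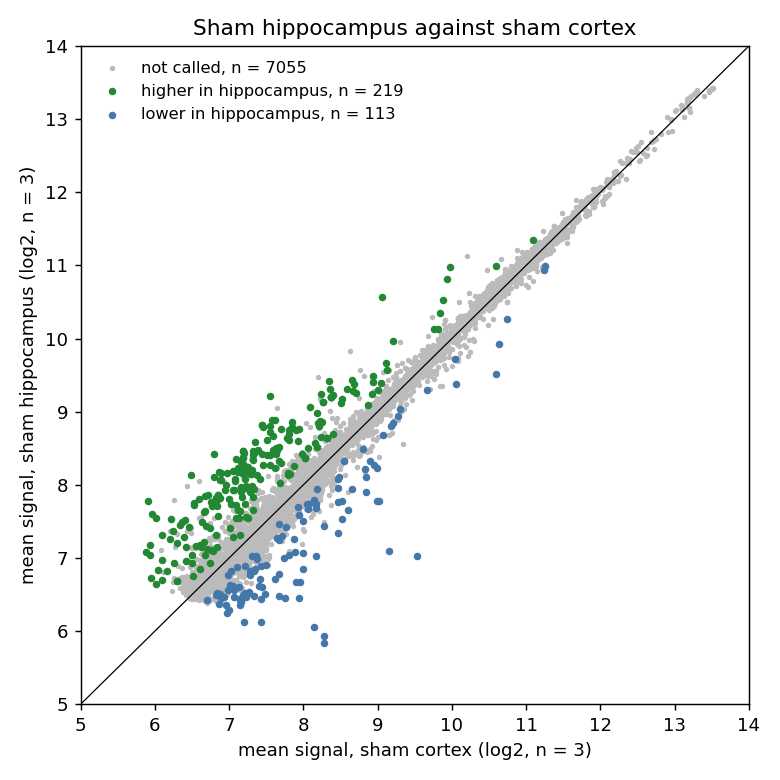
Mean signal in sham cortex (horizontal axis) against sham hippocampus (vertical axis), both log2 and n = 3, for 7387 clusters without an annotation entry, with the line of equality. The 219 clusters called higher and 113 called lower in hippocampus lie mostly under 10, and the bright clusters hug the line.

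Clusters higher in hippocampus were led by 6 with differences of 1.54 to 1.86, all on the same side in TFS hippocampus too. TC1100000405 measured 5.57, 6.18 and 5.98 in cortex, 7.76, 7.85 and 7.71 in sham hippocampus and 7.44, 7.43 and 7.75 in TFS hippocampus. The difference between the sham groups was 1.86 (SE 0.16, adjusted p = 0.0012). TC0400002938 measured 7.20, 7.52 and 7.95 in cortex and 9.58, 8.99 and 9.06 in sham hippocampus, a difference of 1.65 (SE 0.21, adjusted p = 0.0070). In both, every hippocampal array of either group lay above every cortical array. The cortical arrays of TC1100000405 all lay under 6.5, so it met the threshold only through hippocampus. TC0400002938 missed the threshold in a fit of the 6 sham arrays alone (adjusted p = 0.0547, and 0.0020 to 0.0547 over 18 refits).

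TC0100006380 measured 5.87, 6.07 and 5.94 in cortex, 7.65, 7.69 and 7.46 in sham hippocampus and 7.77, 7.94 and 7.58 in TFS hippocampus, with a sham difference of 1.64 (SE 0.10, adjusted p = 3.48e-04). TC0200000319 had a difference of the same size, from 6.42, 6.72 and 6.32 in cortex to 8.08, 8.10 and 8.21 in sham hippocampus (SE 0.10, adjusted p = 3.04e-04). TC0400000533 measured 6.63, 6.65 and 7.09 in cortex and 8.38, 8.37 and 8.52 in sham hippocampus (1.63, SE 0.12, adjusted p = 7.17e-04). These 3 were called in each of the 18 refits. TC1800001539 had a difference of 1.54 (SE 0.13, adjusted p = 0.0011). Its 3 cortical arrays, at 5.82, 6.23 and 5.98, lay under the 6.5 that its hippocampal arrays exceeded. The cortical arrays of TC0100006380 lay under 6.5 too, so both clusters met the threshold only through hippocampus.

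TC0800001580 was the brightest of the leading clusters. It measured 8.91, 8.93 and 9.33 in cortex, 10.55, 10.61 and 10.55 in sham hippocampus and 10.57, 10.71 and 10.74 in TFS hippocampus. The sham difference was 1.52 (SE 0.11, adjusted p = 6.36e-04), and all 9 arrays lay above the background range, with both hippocampal groups clear of cortex.

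The 5 largest differences in size were lower in hippocampus, with hippocampal means within the background range. With a mean of 6.5 or more required in each group, the calls over 2-fold were 54 higher and 9 lower. TC0200002540 measured 9.49, 9.50 and 9.62 in cortex, 7.09, 6.90 and 7.08 in sham hippocampus and 6.90, 6.87 and 7.12 in TFS hippocampus. Its sham difference was -2.51 (SE 0.08, adjusted p = 3.34e-05). TC0200002541, the next number on the same chromosome, measured 8.28, 8.27 and 8.28 in cortex and 6.03, 5.74 and 6.01 in sham hippocampus, a difference of -2.35 (SE 0.08, adjusted p = 4.95e-05). In both, the cortical arrays lay above all 6 hippocampal arrays, and the hippocampal levels were within the background range. The sham hippocampal arrays of TC0200002541 lay under 6.5, so it entered only through the tissue in which it was high.

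TC0200004531, on the same chromosome by its identifier but far off in number, measured 8.43, 8.31 and 8.10 in cortex, 5.95, 5.56 and 6.00 in sham hippocampus and 5.83, 5.92 and 5.32 in TFS hippocampus (-2.44, SE 0.18, adjusted p = 7.64e-04). TC0600002677 measured 8.74, 7.82 and 7.89 in cortex and 5.95, 6.22 and 5.97 in sham hippocampus (-2.10, SE 0.25, adjusted p = 0.0055), with cortical array 1 well above the other 2. In TC0200004531 and TC0600002677 the sham hippocampal arrays lay under 6.5, so these too entered only through the tissue in which they were high. TC0900002005 measured 9.24, 8.84 and 9.39 in cortex and 7.07, 7.10 and 7.11 in sham hippocampus (-2.06, SE 0.13, adjusted p = 3.63e-04). The next 5, TC0800002191, TC0500001381, TC1300000320, TC0600002187 and TC1300001291, had differences from -1.48 to -1.24, each with non-overlapping arrays. All 10 leading lower clusters were called in each of the 18 refits.

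**Figure D3:**
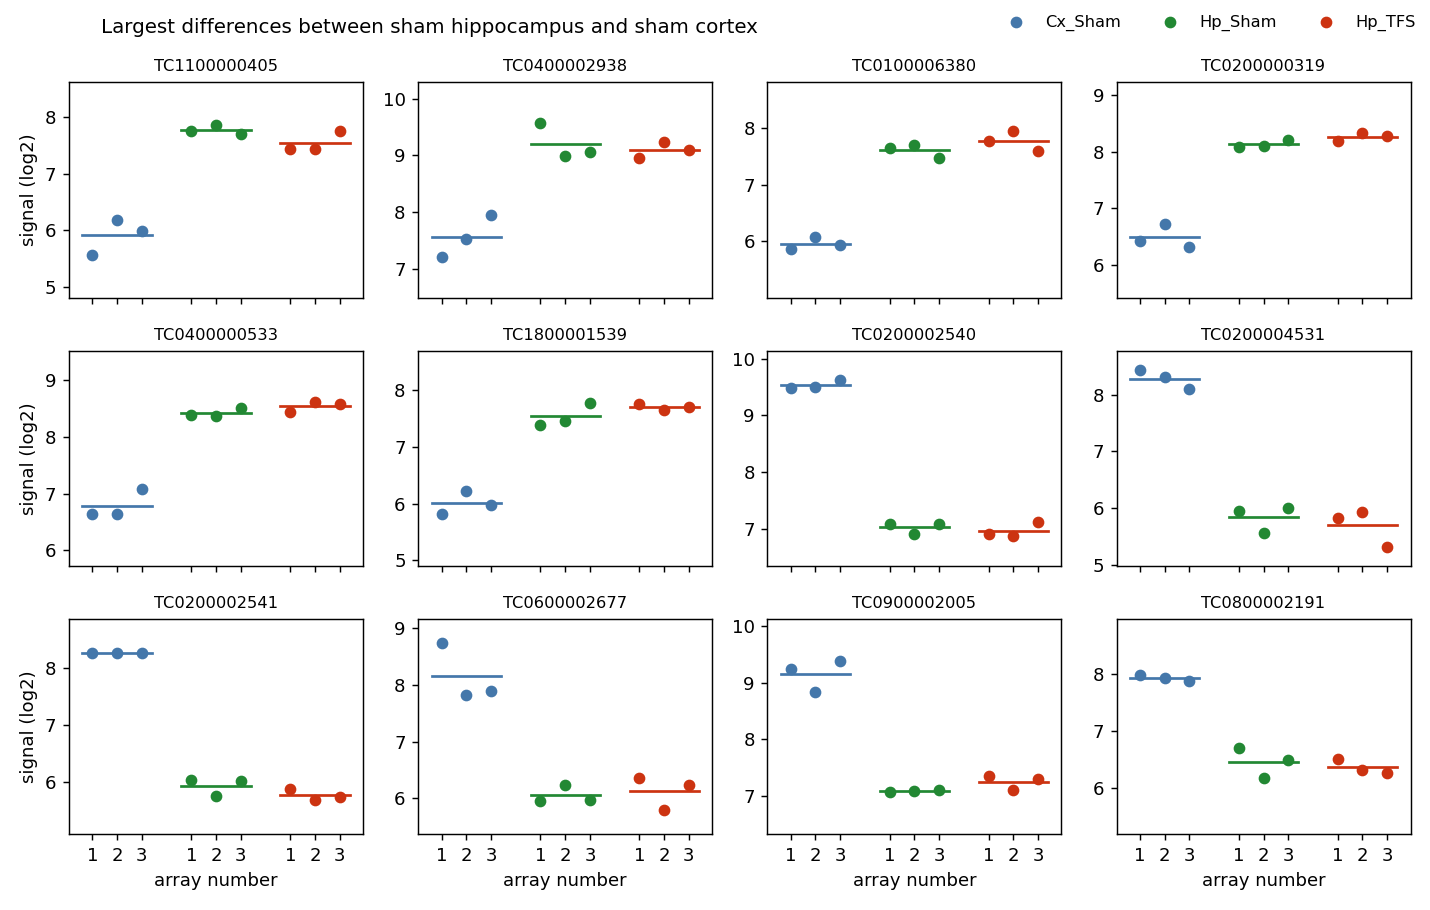
Signal on each array (log2, points; lines are group means, n = 3) of the 6 clusters highest in sham hippocampus against sham cortex, from TC1100000405 to TC1800001539, and the 6 lowest, from TC0200002540 to TC0800002191; every panel spans the same range. In all 12 the TFS hippocampal arrays lie with the sham hippocampal ones and apart from cortex.

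Called clusters with consecutive numbers shared their direction. There were 32 such pairs, 28 higher and 4 lower in hippocampus, 0 with opposite directions, and no run was longer than 2. In the pair TC0300002640 and TC0300002641 the differences were 0.88 and 1.12, and in the pair TC0300004816 and TC0300004817 they were -0.81 and -0.74. Neighbouring clusters may hold probes of 1 transcript, so the members of a pair are not independent. Nor are all the pairs, since TC0100000182 and TC0700001084 held the same values and each belonged to a pair. Of all 332 calls 219 were higher and 113 lower.

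A large share of the clusters higher in hippocampus followed a single profile. The pattern was described after the values were seen, with TC0100000182 as its reference. This cluster measured 7.22, 7.84 and 7.26 in cortex, 8.63, 8.94 and 8.87 in sham hippocampus and 8.97, 8.68 and 8.16 in TFS hippocampus, and TC0700001084, on another chromosome, held exactly the same values. The sham difference was 1.37 (SE 0.23, adjusted p = 0.0234). It missed the threshold in 6 of 18 refits (adjusted p 0.0072 to 0.0999), those without cortical array 1 or 3, any 1 of the 3 sham hippocampal arrays or TFS array 2.

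A Pearson correlation of 0.95 or more with TC0100000182 over the 9 arrays was held by 101 clusters, itself included. These were among all clusters without an entry at 6.5 or more, with 91 distinct profiles and 18 chromosome fields in their identifiers. The 101 are 1.37% of the 7387, and 8 of the 9633 annotated clusters at 6.5 or more (0.083%) followed the profile. Of the 219 called higher 95 (43.4%) were among them. With a limit of 0.9 or 0.98 the number among the called was 129 or 40. Their array medians were 7.12, 7.51 and 7.05 in cortex, 8.20, 8.35 and 8.20 in sham hippocampus and 8.23, 8.08 and 7.76 in TFS hippocampus. TFS array 3 was the lowest of the 6 hippocampal arrays and cortical array 2 the highest of its group. The median sham difference of the 101 was 1.0, and that of the 124 other clusters called higher was 0.61. The reference was itself called higher, and the 101 were chosen for likeness to it over the same arrays. That most of them were called higher, with a large difference, therefore follows in part from the choice. TC0400000059 was another of the leading 10 (1.33, SE 0.18, adjusted p = 0.0083), with TFS array 3 lowest in hippocampus at 8.16.

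The markers of choroid plexus and ependyma also had TFS array 3 as the lowest hippocampal array. All 10 were measured, and their median level was 5.56 to 5.64 on the cortical arrays, 6.01 to 6.39 on the sham hippocampal and 5.73 to 6.38 on the TFS arrays, where 5.73 belonged to array 3. By these medians cortical array 2 was the lowest of its group, at 5.56 against 5.63 and 5.64. For the 101 clusters it was the highest. Of the 10 markers only Ttr, the transthyretin gene of choroid plexus, was called between the sham tissues. It lay at 10.35 to 11.56 in sham hippocampus and at 8.82 on TFS array 3. For Ttr cortical array 2 was the highest of its group, at 7.70 against 7.43 and 7.50. The order of the cortical arrays was therefore not shared by all 10. Sham array 3 was the highest of its group for these markers and not for the 101 clusters. The markers of meninges, of which 6 of 6 were measured and 0 called, had medians of 7.36, 7.96 and 7.33 in cortex, 7.05, 7.21 and 6.98 in sham hippocampus and 7.13, 7.22 and 6.84 in TFS hippocampus. Here cortical array 2 and sham hippocampal array 2 were the highest of their groups and TFS array 3 the lowest, as for the 101 clusters. Hippocampus, however, lay below cortex, and only the median of cortical array 2 lay above the background range. The part of either tissue in the result was not tested, and in bulk tissue a smaller share of a cell type cannot be told apart from less RNA per cell.

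The mitochondrial genome, which encodes subunits of the respiratory chain and the RNAs needed to translate them, had 40 clusters, 3 of them annotated (COX1, COX2 and COX3). Of the 37 without an entry 34 reached 6.5, with means of 6.71 to 12.77 and a median of 10.94. In 27 of the 34 sham hippocampus was higher than cortex, with a median difference of 0.16. Without cortical array 3, described next, 26 were higher, with a median of 0.15. Hippocampus was also higher in 4380 of all 7387 clusters, and in 1722 of the 2019 at 10 to under 12. That level held 17 of the 34 mitochondrial clusters. By limma 0 of the 34 passed (lowest adjusted p = 0.125), and 11 had an unadjusted p under 0.05, which 12.4% of all clusters had.

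Cortical array 3 stood apart for some of these clusters. TC0M00000028 measured 6.97, 7.17 and 4.12 in cortex, 7.47, 7.55 and 6.31 in sham hippocampus and 7.23, 6.62 and 6.98 in TFS hippocampus. TC0M00000010 measured 8.96, 9.76 and 7.16 in cortex and 9.88, 9.97 and 9.64 in sham hippocampus. TC0M00000024 measured 7.95, 8.76 and 6.24 in cortex and 8.85, 9.41 and 8.89 in sham hippocampus. Cortical array 3 was the lowest of all 9 in each, and these clusters, with TC0M00000038 and TC0M00000016, had the largest SD within a group of all 7387. Cortical array 3 lay more than 1 log2 unit below the mean of the other cortical arrays in 7 of the 34 mitochondrial clusters, with a lowest value of -2.95, and above it in 15, by up to 0.29. The low ones were mainly the dimmer: of the 9 under 10 all were lower on that array. Over all chromosomes 8 clusters were more than 1 unit below both other cortical arrays there, and 7 of these were mitochondrial. In the other direction 10 clusters stood more than 1 unit above both, none of them mitochondrial, and TFS array 3 stood so for 6 against the other TFS arrays.

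The second comparison asks whether these transcripts differ in hippocampus 4 h after TFS. By limma 0 of the 7387 clusters passed at an adjusted p under 0.05, as did 0 of all 68842 (0%). An unadjusted p under 0.05 was found for 490 (6.63%), 100 higher and 390 lower, against 4.57% of all clusters, 1.61% higher and 2.96% lower. The 95% confidence interval excluded a 1.5-fold difference for 96.2% of the clusters. The arrays did not overlap for 213 clusters higher (2.88%) and 574 lower (7.77%) after TFS, against 3.32% and 4.06% of all.

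The small differences lay more often below 0 than above it. The median was -0.067, with 72.5% below 0, while the 9633 annotated clusters at 6.5 or more had a median of 0.025 and, at an unadjusted p under 0.05, 433 above 0 and 31 below. The median of all clusters was -0.013. The split depended on scaling: with median centring of the arrays 158 differences above 0 and 154 below it had such a p, with a median of -0.037 against 0.018 for all clusters. Quantile normalization gave 115 above and 301 below, with a median of -0.029 against 0.0063 for all.

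The lower values were most common among the bright clusters. At 10 to under 12 the median difference was -0.14, with 1904 of 2019 (94.3%) below 0, while the 311 annotated clusters at that level had a median of 0.066 with 10.9% below 0. At 6.5 to under 8 and at 8 to under 10 the medians were both -0.032, and at 12 to under 14 the median was -0.024. Among the bright clusters 0 passed the limma test and 164 lower and 12 higher had an unadjusted p under 0.05. Of the 2019, 72.2% had a correlation of 0.8 or more with the band's median profile, so they are not independent of each other. Without sham hippocampal array 2 their median was -0.074, and after quantile normalization it was -0.021.

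Negative control probe sets moved the same way. The 10 with a mean of 10 to under 12 had array medians of 11.21, 11.20 and 11.29 in sham and 11.04, 11.15 and 11.13 in TFS hippocampus, a median difference of -0.11 with 9 of 10 lower. Of the 72 negative controls at 6.5 to under 8, 52 were lower. The distance from negative to positive controls was 3.73 to 3.96 on the sham and 3.95 to 4.0 on the TFS hippocampal arrays. The part of background signal in the lower values of bright unannotated clusters was not tested.

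**Figure D4:**
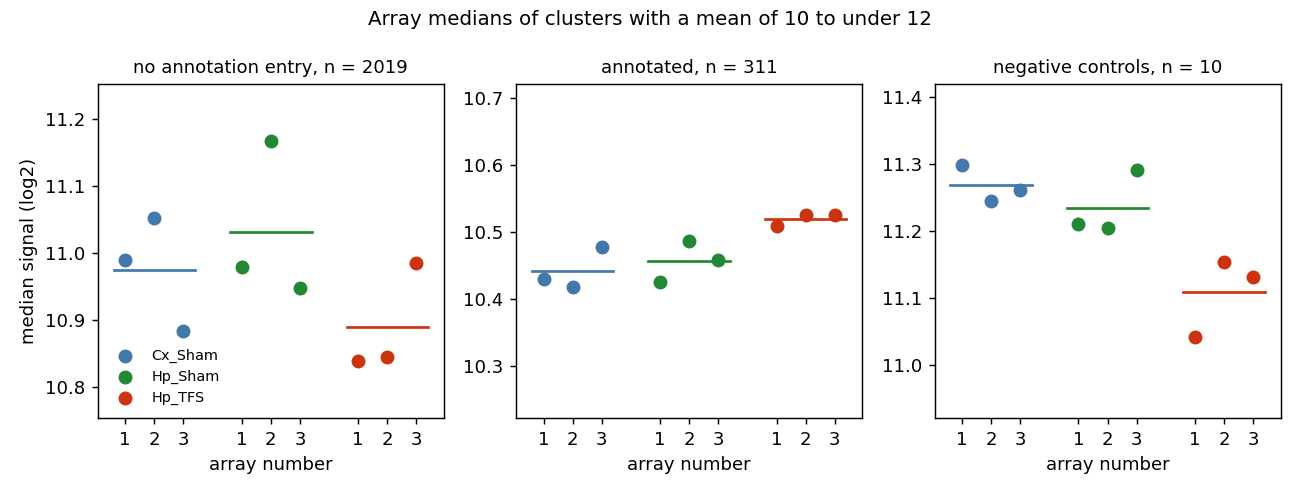
Median signal on each array (log2, points; lines are the means of the 3 array medians) of clusters with a mean of 10 to under 12: 2019 without an annotation entry, 311 annotated and 10 negative controls; every panel spans 0.5 log2 units. The TFS mean lies below the sham hippocampal mean in the first and last panels and above it for annotated clusters; in the first, TFS array 3 at 10.99 lies above sham arrays 1 and 3.

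The largest single difference after TFS belonged to TC0100001637. It measured 6.997, 6.78 and 6.86 in cortex, 6.80, 7.11 and 6.88 in sham hippocampus and 5.77, 5.78 and 5.68 in TFS hippocampus. All 6 sham arrays of both tissues lay between 6.78 and 7.11, above every TFS array. The difference was -1.18 (SE 0.088, unadjusted p = 1.2e-06), and the adjusted p of 0.0823 by limma was the smallest of all 68842 clusters. Its mean of 6.52 was just above the threshold, and all its levels lay within the background range. Over 18 refits the adjusted p ran from 0.0164 to 0.882 and was under 0.05 in 5: with the filters at the median and at 6.5, after median centring, after quantile normalization and with array weights. Leaving out any 1 array gave 0.134 or more.

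Clusters numbered near TC0100001637 tended to be lower after TFS as well, a pattern seen only after its values were known and therefore given without a test. Within 20 numbers on each side, itself included, lay 41 clusters, 33 without an entry and 8 annotated. Of the 33 the TFS difference was below 0 in 27, with a median of -0.22, and an unadjusted p under 0.05 was found for 14 below 0 and for 0 above. Of the 8 annotated 1 was lower and 1 higher at that level, with a median of -0.015. Arrays did not overlap for 15 of the 33 lower and 1 higher. Over all clusters 57.9% were below 0, and 63.5% of those without an entry under 6.5 were. Over all clusters, too, 2.96% were lower at an unadjusted p under 0.05, and 4.06% were lower with arrays that did not overlap. At that p 390 of the 7387 clusters were lower, and 1425 of the 37504 without an entry under 6.5. Of these 2 classes 7.77% and 4.94% were lower with arrays that did not overlap. Neighbouring clusters may hold probes of 1 transcript, so the 33 are not independent. Among the 33, 11 had a mean of 6.5 or more, TC0100001637 included, and 10 of these were below 0. Of all 7387 clusters 72.5% were below 0, and of those at 10 to under 12 it was 94.3%. None of the 41 was called between sham cortex and sham hippocampus by limma.

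TC0100001623 was the second of these at 6.5 or more with a large difference, at 6.51, 7.03 and 7.15 in cortex, 6.43, 7.32 and 6.83 in sham hippocampus and 6.02, 5.77 and 6.23 in TFS hippocampus (-0.85, SE 0.25, adjusted p = 0.886). TC0100001625, at a mean just under the threshold, measured 5.72, 7.26 and 7.24 in cortex, 5.80, 6.95 and 7.13 in sham hippocampus and 6.16, 6.02 and 6.18 in TFS hippocampus. TC0100001626 measured 4.87, 5.99 and 5.71, then 5.00, 5.72 and 5.63, then 4.81, 4.69 and 4.73 in the same order of groups. In these 3 the cortical and the hippocampal sham array numbered 1 were both the lowest of their group, and in TC0100001625 they lay below all TFS arrays. TC0100001642, on the other side by number, measured 9.00, 9.61 and 9.16 in sham and 8.89, 8.87 and 8.75 in TFS hippocampus (-0.42, unadjusted p = 0.0228, adjusted p = 0.886).

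**Figure D5:**
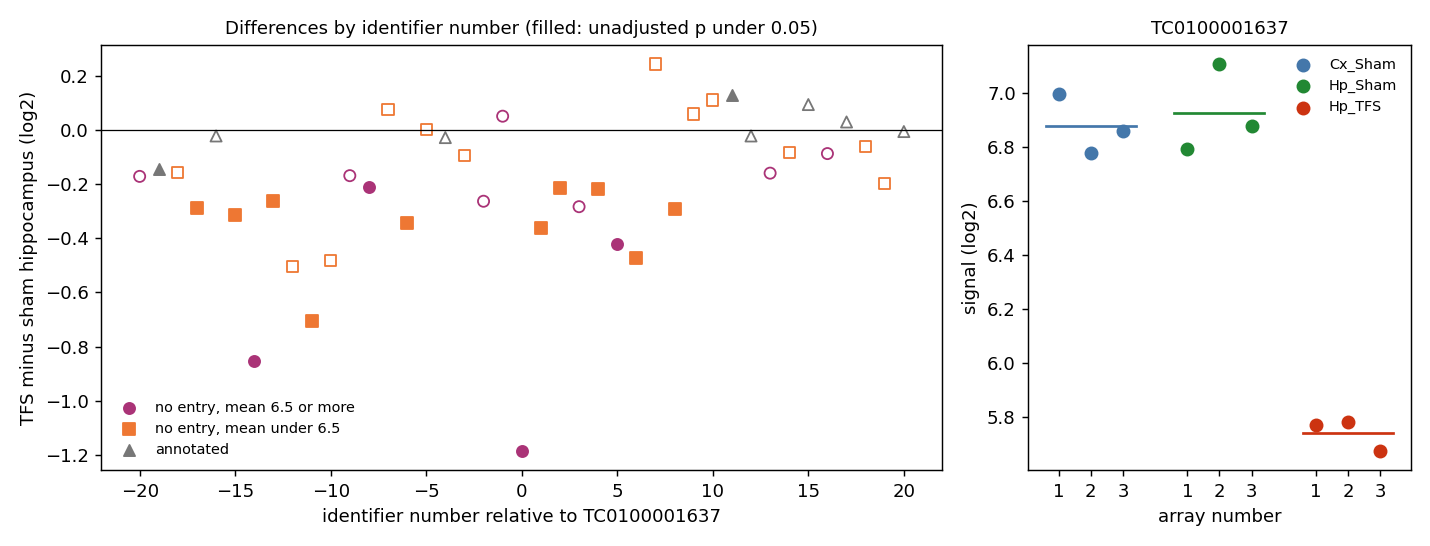
Left, log2 difference of TFS minus sham hippocampus (vertical axis) of 41 clusters by identifier number relative to TC0100001637 (horizontal axis), with filled symbols for an unadjusted p under 0.05; right, signal of TC0100001637 on each array with group means (n = 3). Of the 33 clusters without an entry 27 lie below 0, and the 3 TFS arrays of TC0100001637 lie between 5.68 and 5.78, under all sham arrays.

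An unadjusted p under 0.05 together with a difference of at least 1.5-fold was found for 6 clusters, all lower after TFS, where 0.0465% of all clusters met both. Besides TC0100001637 and TC0100001623 they were TC0400002052, TC0200003615, TC1700000868 and TC0500004039, on 4 chromosomes. TC0400002052 measured 5.84, 6.67 and 6.26 in cortex, 6.81, 8.52 and 8.05 in sham hippocampus and 6.75, 6.59 and 6.79 in TFS hippocampus (-1.08, SE 0.41, adjusted p = 0.886). TC0200003615 measured 6.22, 6.91 and 6.16, then 7.15, 8.56 and 8.25, then 6.81, 6.77 and 7.14 (-1.08, SE 0.36, adjusted p = 0.886). In these 4 sham hippocampal arrays 2 and 3 stood above everything else, and sham hippocampal array 1 lay near the TFS arrays. Over the 9 arrays 9 of the 7387 clusters (0.12%), TC0400002052 included, had a correlation of 0.95 or more with TC0400002052. So did 3 of the 9633 annotated clusters at 6.5 or more (0.031%) and 5 clusters without an entry under 6.5.

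Other clusters with the smallest p-values changed by less. On the higher side TC0900001318 measured 6.72, 6.59 and 6.68 in sham and 6.91, 6.91 and 6.96 in TFS hippocampus (0.26, SE 0.04). TC0300001481, called lower in sham hippocampus than in cortex (-0.42, adjusted p = 0.0018), measured 7.71, 7.78 and 7.66 in cortex, 7.34, 7.28 and 7.26 in sham hippocampus and 7.51, 7.52 and 7.52 in TFS hippocampus, where it lay between the other 2 groups. TC0100003997, called higher in sham hippocampus than in cortex (0.60, adjusted p = 0.0010), went from 7.92, 7.92 and 7.98 in sham to 8.08, 8.21 and 8.19 in TFS hippocampus. The TFS arrays lay above the sham hippocampal ones in each, and also in TC1000001281 (0.22) and TC1800000528 (0.31).

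On the lower side TC0X00001462 measured 10.27, 10.13 and 10.11 in sham and 9.86, 9.94 and 9.93 in TFS hippocampus (-0.26, SE 0.05). TC1600001460 measured 7.25, 7.45 and 7.42 in cortex, 7.07, 6.96 and 6.93 in sham hippocampus and 6.73, 6.64 and 6.55 in TFS hippocampus (-0.35, SE 0.07). It was also called between the sham tissues (-0.39, adjusted p = 0.0317). TC0X00001594 and TC1700000138 differed by -0.16 and -0.13. Hippocampal groups did not overlap in any of these 4, and the adjusted p of each of these 9 clusters was 0.886 by limma.

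Mitochondrial clusters without an entry lay below 0 after TFS in 34 of 34 cases, where 57.9% of all clusters and 72.5% of the 7387 did. Clusters of 1 small genome may hold probes of 1 transcript, so counts among the 34, in either comparison, are not of independent cases. Median centring moved the median of all clusters from -0.013 to 0.018, so the sign of differences near -0.020 depends on scaling. The median was -0.18 and the range -0.48 to -0.020, with 2 at an unadjusted p under 0.05 (4.57% of all clusters) and 0 called by limma. The hippocampal arrays did not overlap for 8 of the 34, all lower, against 4.06% of all clusters and 7.77% of the 7387. By level the share was 8.62% of the 7387 at 10 to under 12 and 15.2% at 12 to under 14. Of the 34 clusters 25 had a mean of 10 or more. The annotated COX1, COX2 and COX3, subunits of cytochrome c oxidase, differed by 0.017, -0.049 and -0.039. TC0M00000033 measured 10.57, 10.49 and 10.43 in sham and 10.19, 9.85 and 10.34 in TFS hippocampus (-0.37, SE 0.16, adjusted p = 0.886). Of these 34 clusters 17 have a mean of 10 to under 12, where unannotated clusters of all chromosomes lay lower.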

How the data were processed

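The authors deposited 1 log2 value per transcript cluster or control probe set and array. RMA and limma, with no version, are the tools in the submitters' processing notes. The genome build is not given in the sources used here. Of 70580 rows 1738 control rows were left out. A linear model with 1 mean per group was fitted to all 68842 clusters and 9 arrays, with no filter on signal, in limma 3.58.1 under R 4.3.3 (lmFit, contrasts.fit, eBayes; 6 residual and 1.75 prior degrees of freedom). Tests were two-sided, with Benjamini-Hochberg adjustment over all clusters and a threshold of 0.05. Refits changed filters, arrays, scaling, eBayes options, array weights and the replicate block, and left out each array. The members and lists were chosen with earlier results of these data known. Named are the 10 brightest clusters, those beside the threshold, the 3 brightest unmapped, the 10 largest called differences each way with non-overlapping groups (with no call, the 5 smallest p each way), the 5 largest SDs, the first of shared profiles, and listed genes; clusters named for correlation, neighbourhood, size without adjustment, consecutive numbers or position on the mitochondrial genome were chosen after their values were seen. Sham arrays of 1 number deviated together (correlations of 0.18, 0.15 and 0.20 over all clusters, and 0.28, 0.26 and 0.51 over those described here). Between sham arrays of different numbers none was above 0.044. The deviations of a group's 3 arrays from their mean sum to 0, so low values there follow in part from the positive ones. The number was used as a block in alternative fits. The block took in all 9 arrays, so it paired the TFS arrays by number too, and no fit paired the sham arrays alone. TFS and sham hippocampal arrays of 1 number did not deviate together (-0.0030, -0.19 and -0.046, and 0.11, -0.36 and -0.049). TFS array 2 with sham hippocampal array 1 gave 0.16 and 0.25, and TFS array 3 with sham hippocampal array 2 gave 0.20 and 0.37. Over all clusters correlations of this size thus occurred without a shared number. Over those described here the largest without one was 0.37, below the 0.51 of the sham arrays numbered 3. Whether the sham arrays are paired is not known.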

Additional observations from a re-analysis of the deposited data

How the results depend on the processing

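With all clusters tested the count after TFS was 0. It was 1, TC0100001637, with only clusters at or above the median mean, with only clusters at 6.5 or more, after median centring, after quantile normalization, with array weights and at an adjusted p under 0.1, and 6 with an unadjusted p under 0.05 and at least a 1.5-fold difference. It was 0 whichever array was left out. The regional count of 332 was 569 with only clusters at 6.5 or more tested, 153 in the 6 sham arrays alone and 182 among clusters above the background range. Leaving out 1 array gave 154 to 336, and without sham hippocampal array 1 the split was 168 higher and 168 lower.

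With the replicate number as a fixed block over all 9 arrays 312 clusters were called between the sham tissues, 223 higher and 89 lower. Of these 255 were among the 332. A random block gave 333, with a consensus correlation of 0.0016, which leaves that fit nearly unblocked. Both blocks took in the TFS arrays, so a pairing of the sham arrays alone was not tested. The block left 0 calls after TFS. Of 540 refits of 30 named results 522 kept their direction and side of the threshold, 13 lost the threshold, 5 gained it and 0 turned. Counting each exactly shared profile once, chosen after seeing the data, gave 318 regional calls and 0 after TFS. The bright clusters' regional median of 0.055 was -0.0060 without sham hippocampal array 2. Signals within the background range give the direction of a difference and not a ratio of transcript.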
